A study of Homo sapiens with 4 samples.

Results

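Ribosomal protein processed pseudogenes are copies of ribosomal protein mRNAs that were reverse-transcribed and inserted elsewhere in the genome. The copies described here were selected on their measured level: a GENCODE 29 biotype of processed or transcribed processed pseudogene, a symbol naming a ribosomal protein gene, and at least 1 FPKM in at least 2 of the 4 libraries. FPKM is the reads of a gene divided by its length and by the size of the library. Of the 1063 such pseudogenes listed in the files, 121 met this rule, 540 had no read in any library and 402 had reads but stayed below the rule. Because level chose them, the levels below are given as a description.

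The study examined gene regulation by FEN1, an enzyme that cuts DNA flaps during replication, when DNA probes are delivered with it. RNA was sequenced from HEK293A, an established epithelial cell line from human embryonic kidney. The 2 libraries of the NT1_hp2 group (replicates 2 and 3) came from cells given the probe of that name, and the 2 negative control libraries are replicates 1 and 3. All 4 libraries share the rest of the treatment. Wells were seeded with 300000 cells, received 1 µg of FEN1 plasmid 24 h after seeding and 500 pmol of DNA probes after a further 48 h, and total RNA was prepared after 72 h. The controls therefore carry FEN1 as well. The sources used here give neither what NT1_hp2 is directed against nor the probe of the controls. Nothing in the labels says that replicates are separate cultures, so each p-value measures a spread between libraries that may be technical only.

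Ribosomal protein genes are transcribed at a high rate in growing cells, and their spliced mRNAs are among the most abundant. LINE-1 enzymes can copy such an mRNA back into the genome, which leaves a copy with no introns and usually no promoter of its own. Such a copy is usually transcribed only where a nearby promoter or a surrounding gene reads through it, and a sequencing read from it can closely resemble one of the parent gene.

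Recovered depth was 13647614 and 13602537 reads in NT1_hp2 replicates 2 and 3, and 14908687 and 12506203 reads in negative control replicates 1 and 3. For a feature of 1 kilobase, 3 reads amounted to 0.208 to 0.239 FPKM, a floor that covers counting error only. The epithelial keratins KRT8 and KRT18 stood at 84.2 to 112 and 54.4 to 77.7 FPKM and vimentin (VIM) at 98.3 to 110 FPKM, while the epithelial adhesion genes EPCAM and CDH1 and the kidney genes PAX2 and PAX8 were under 1 FPKM in every library. Of 13 markers of other cell types 10 were under 1 FPKM in every library, and the summed level of that list was 12.8 and 12.1 FPKM in NT1_hp2 and 14.2 and 14.0 FPKM in the negative control.

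Some of these copies differ from the parent mRNA at few positions or none, and coding stretches are printed here because the results below are given by that difference. The sequences are those of GENCODE 29 on GRCh38, 5′ to 3′, and capitals mark the positions at which a copy and its parent differ. Each stretch is the one with the most differences among the gap-free stretches of its length. RPS28P7 (chr11:82689559-82689678, plus) matches the first 120 coding bases of RPS28, a small-subunit gene, at every position.
RPS28P7: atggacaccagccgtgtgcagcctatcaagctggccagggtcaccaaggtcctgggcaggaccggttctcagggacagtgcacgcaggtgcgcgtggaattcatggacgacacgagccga
RPS28: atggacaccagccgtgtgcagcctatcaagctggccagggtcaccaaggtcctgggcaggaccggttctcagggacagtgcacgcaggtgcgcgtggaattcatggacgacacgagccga

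Other copies have drifted further, and these 4 are shown because they are the highest of the more diverged copies (RPL12P14) or were higher in NT1_hp2 (the other 3). RPL12P14 (chr1:15793113-15793232, plus) differs at 10 of 120 positions from coding bases 322 to 441 of RPL12, a large-subunit gene of the stalk base.
RPL12P14: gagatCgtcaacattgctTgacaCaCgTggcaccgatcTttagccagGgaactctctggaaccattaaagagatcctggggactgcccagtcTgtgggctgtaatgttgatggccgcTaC
RPL12: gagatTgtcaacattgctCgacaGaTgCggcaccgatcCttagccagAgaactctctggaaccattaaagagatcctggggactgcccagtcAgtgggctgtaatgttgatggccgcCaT
RPL17P50 (chr10:73006371-73006490, minus) differs at 8 of 120 positions from coding bases 106 to 225 of RPL17, a large-subunit gene.
RPL17P50: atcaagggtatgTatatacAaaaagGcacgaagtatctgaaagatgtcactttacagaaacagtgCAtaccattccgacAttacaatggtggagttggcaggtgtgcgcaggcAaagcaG
RPL17: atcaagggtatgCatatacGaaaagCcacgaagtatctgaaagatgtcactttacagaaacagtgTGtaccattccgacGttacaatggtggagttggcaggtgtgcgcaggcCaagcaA
RPS15AP10 (chr1:45645864-45645983, minus) differs at 21 of 120 positions from coding bases 226 to 345 of RPS15A, a small-subunit gene.
RPS15AP10: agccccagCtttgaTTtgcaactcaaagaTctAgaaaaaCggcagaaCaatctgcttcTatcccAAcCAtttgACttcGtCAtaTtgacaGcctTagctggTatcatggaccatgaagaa
RPS15A: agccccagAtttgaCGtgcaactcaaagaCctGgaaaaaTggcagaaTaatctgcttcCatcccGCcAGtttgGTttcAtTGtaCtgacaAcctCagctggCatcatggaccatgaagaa
RPS3AP3 (chr20:37021743-37021832, minus) differs at 10 of 90 positions from coding bases 170 to 259 of RPS3A, a small-subunit gene.
RPS3AP3: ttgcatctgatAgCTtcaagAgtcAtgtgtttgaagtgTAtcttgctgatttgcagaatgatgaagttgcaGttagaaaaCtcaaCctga
RPS3A: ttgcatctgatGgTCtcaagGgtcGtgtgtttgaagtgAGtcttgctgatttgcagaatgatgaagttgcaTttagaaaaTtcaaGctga

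The 121 pseudogenes derive from 53 parent genes, 41 of them from small-subunit and 80 from large-subunit genes, and 107 carry the biotype processed pseudogene against 14 annotated as transcribed. The largest families were those of RPS3A (7 of 38 listed copies), RPL23A (7 of 90), RPL7A (6 of 37) and RPL39 (5 of 15). All 121 aligned across at least 1 exon junction of the parent mRNA, 111 were a single exon block, and in 100 the alignment covered at least 99% of the parent coding sequence. Identity to the parent mRNA had a median of 95.6% and a lowest value of 76.3%, and 5 copies were identical over the aligned length (RPS28P7, RPL39P3, RPL41P1, RPL21P16 and RPL41P5). An open reading frame as long as the parent protein was present in 32 copies, 25 of the 41 with at least 98% identity and 7 of the 80 below that. The share of listed copies that met the level rule was 11.4%, against 7.13% of the 9609 other processed pseudogenes, a difference that was not tested.

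Ribosomal protein pseudogenes held a small share of the reads, most of it in a few copies. They took 0.235% of the reads in both NT1_hp2 libraries (32053 and 31915 reads), against 0.300% and 0.265% in negative control replicates 1 and 3 (44783 and 33143 reads). Set against the reads of their 53 parent genes, this amounted to 4.75% and 4.79% in NT1_hp2 and 4.92% and 4.83% in the negative control. The 10 highest copies held 67.3% to 69.4% of the pseudogene reads of a library. The median copy had a mean of 2.48 FPKM over the 4 libraries, 35 copies reached 10 FPKM and 11 reached 100.

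**Figure D1:**
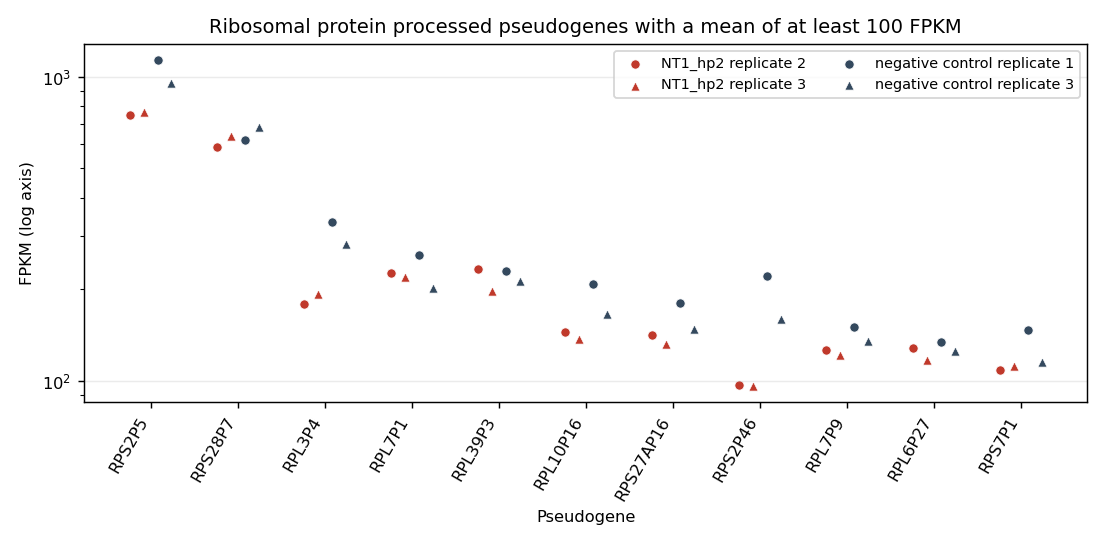
FPKM (log axis) of the 11 ribosomal protein pseudogenes with a mean of at least 100 FPKM, with 1 point for each NT1_hp2 library (red) and each negative control library (grey). RPS2P5 is highest in the negative control at up to 1134 FPKM, and RPS28P7 lies between 586 and 686 FPKM in all 4 libraries.

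RPS2P5, inside an intron of TAOK3 on the opposite strand (chr12:118246084-118246962), was the highest copy. It stood at 751.0 and 764 FPKM in NT1_hp2, against 1134 and 956 FPKM in the negative control, and alone held 29.1% to 32.1% of the pseudogene reads. RPS2, the parent, had 1220.1 and 1241 FPKM in NT1_hp2 against 2019 and 1674 FPKM in the negative control. The groups were apart in both genes. RPS28P7, a copy with no difference from its parent in the aligned length, had 586 and 639 FPKM in NT1_hp2 against 622 and 686 FPKM in the negative control, and these values overlap. It was above RPS28 itself, which had 219.6 and 208 FPKM in NT1_hp2 and 271 and 239.99 FPKM in the negative control, a comparison per annotated length. RPS28 has 2119 annotated exon bases and RPS28P7 has 210, and in reads RPS28P7 amounted to 26.5% and 30.4% of RPS28 in NT1_hp2 and 22.7% and 28.4% in the negative control.

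Only 3 of the 121 copies exceeded the parent in mean FPKM, and the median ratio of copy to parent was 0.0173. The 5 highest ratios were those of RPS28P7 (2.70), RPL17P50 (1.37), RPL36AP43 (1.18), RPL26P19 (0.961) and RPL39P3 (0.75). In RPL17P50 and RPL36AP43 the ratio rests on a low parent value. RPL17 had 4.88 and 3.94 FPKM in NT1_hp2 and 6.00 and 4.49 FPKM in the negative control, and RPL36A had 2.97 and 3.16 FPKM in NT1_hp2 and 2.44 and 2.85 FPKM in the negative control. Both parents share annotated exons with read-through genes (RPL17-C18orf32 and RPL36A-HNRNPH2), which are listed at 0 in all 4 libraries. The sources used here do not say how reads in shared exons were assigned.

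RPL3P4, a copy of part of the large-subunit gene RPL3, had 179 and 194 FPKM in NT1_hp2 against 334 and 282 FPKM in the negative control. RPL7P1, within CSF1R on the opposite strand, had 226 and 219 FPKM in NT1_hp2 against 259 and 202 FPKM in the negative control. RPL39P3, within OOEP on the same strand and identical to RPL39 over its length, had 234 and 197 FPKM in NT1_hp2 against 229 and 212 FPKM in the negative control. The libraries of the groups were apart for RPL3P4 and overlapped for RPL7P1 and RPL39P3. The next copies by level were RPL10P16, RPS27AP16, RPS2P46, RPL7P9 and RPL6P27, with means of 126 to 164 FPKM over the 4 libraries. RPL10P16 shares 89 bases with an exon of AC010422.3, which is listed at 0 in every library.

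Near the level threshold, values rested on a handful of reads. The copies just inside it were RPS26P47 (5 and 5 reads in NT1_hp2, 5 and 0 in the negative control), RPL21P4 (7 and 2 reads in NT1_hp2, 7 and 4 in the negative control) and RPL39P38 (2 and 2 reads in NT1_hp2, 3 and 2 in the negative control). Those just outside were RPL21P93 (5 and 5 reads in NT1_hp2, 7 and 10 in the negative control), RPL26P6 (6 and 9 reads in NT1_hp2, 1 and 3 in the negative control) and RPL13AP7 (8 and 4 reads in NT1_hp2, 8 and 8 in the negative control). The second-highest of the 4 levels, which decided membership, was at most 0.994 FPKM in the copies outside.

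Level went with closeness to the parent sequence. The 41 copies with at least 98% identity had a median of 45.8 FPKM, ranging from 0.757 to 901 FPKM, and the 80 copies below had a median of 1.75 FPKM, ranging from 0.665 to 34.3 FPKM. Of the 35 copies with at least 10 FPKM, 30 had at least 98% identity, and 30 shared at least 1 stretch of 100 bases with the parent mRNA. A read from such a stretch could have come from either gene, and the sources used here do not say how the counting placed it, so the levels of these copies are uncertain. Across the 121 copies, identity and log2 mean FPKM had a Pearson r of 0.57 and a Spearman rho of 0.66, a description of points that share libraries, parents and possibly reads. The log2 mean FPKM of copy and parent had an r of 0.16 and a rho of 0.14 over the same points. RPL12P14 (94.1% identity) was the highest of the 60 copies that share no such stretch, at 34.3 FPKM over the 4 libraries. With stretches of 50 bases only 30 copies shared none with the parent, and 13.8% of those in RPL12P14 were shared.

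**Figure D2:**
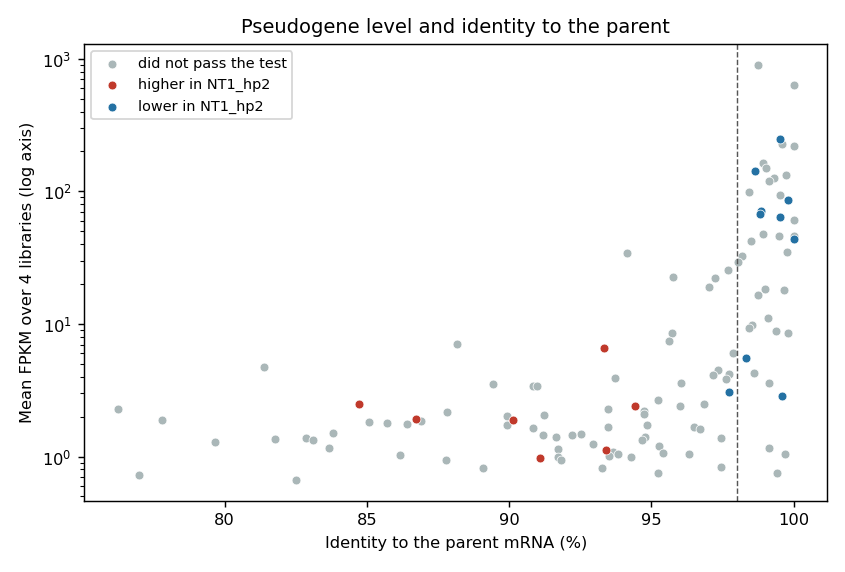
Mean FPKM over the 4 libraries (log axis) against identity to the parent mRNA for the 121 pseudogenes, with copies higher in NT1_hp2 in red, lower in blue and those that did not pass the test in grey; the dashed line marks 98%. Copies above 100 FPKM lie right of the line, and the copies higher in NT1_hp2 lie left of it, at 94.4% identity or less.

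Between NT1_hp2 and the negative control, 7 of the 121 copies were higher and 10 were lower. Of all 16362 features tested with limma-trend on log2(FPKM + 1), 13.9% passed an adjusted p of 0.05 (Benjamini-Hochberg), 5.00% of them higher and 8.92% lower in NT1_hp2, so the number of copies called was near the background. The median log2 difference was 0.0038 over the 121 copies and −0.01 over all features tested. Of the 7 higher copies, 4 met the level rule only through the NT1_hp2 libraries and so had to differ between groups. Among the 81 copies with at least 1 FPKM in all 4 libraries, 2 were higher (RPL17P50 and RPL5P30) and 10 lower. The libraries of the groups did not overlap in 60 copies, 23 higher and 37 lower in NT1_hp2, that is 49.6%, where 66.8% of all features tested did not overlap. Of the 60, 9 met the level rule only through NT1_hp2 and 3 only through the negative control, so they could not overlap. Of the 109 copies that met it through both groups, 14 were higher and 34 lower without overlap (44.0%). These include copies that NT1_hp2 alone would have admitted and that reached 1 FPKM in only 1 negative control library. RPL7AP10 is such a copy, so the 109 are not free of the selection. The share over all features was not split in this way. With 2 libraries a group, an exact permutation test of a single value cannot go below p = 0.333 (two-sided). With any 1 of the 4 libraries left out, limma-trend called 0 copies, with 22 to 42 at an unadjusted p under 0.05 against 35 with all libraries.

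**Figure D3:**
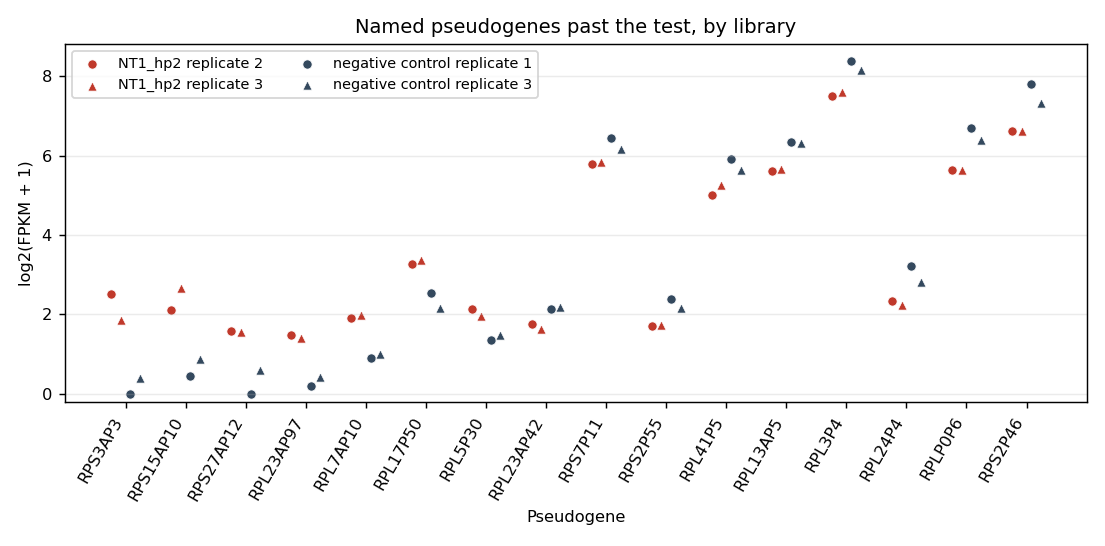
Log2(FPKM + 1) in each library of 16 of the 17 pseudogenes that passed the test, NT1_hp2 in red and negative control in grey, ordered by the difference. The 7 copies on the left are higher in NT1_hp2, all below 10 FPKM, and the 9 on the right are lower, with levels of 2.09 to 334 FPKM.

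The lower calls lay mostly among the copies closest to the parent, which were also at higher levels (median 45.8 FPKM, against 1.75 FPKM below 98% identity). The log2(FPKM + 1) scale understates changes at low levels, so closeness and level cannot be told apart in these calls. Of the 41 copies with at least 98% identity, 0 were higher and 9 lower in NT1_hp2 by limma-trend (1 higher and 16 lower at an unadjusted p under 0.05; limma-voom on recovered reads called 0 higher and 11 lower). Their median log2 difference was −0.22, with 31 of 41 negative. The size of this median depended on the control library, at −0.12 without negative control replicate 1 and −0.32 without replicate 3. It was −0.22 without NT1_hp2 replicate 2 and −0.19 without NT1_hp2 replicate 3. Of the 80 copies below 98%, 7 were higher and 1 lower, and the median log2 difference was 0.12. Of these 7, RPS3AP3, RPS15AP10, RPS27AP12 and RPL23AP97 are the 4 that met the level rule only through NT1_hp2, so their direction was fixed by selection. With at least 1 FPKM required in all 4 libraries, the calls below 98% were 2 higher and 3 lower of 43 (median 0.06), and those at 98% or more were 0 higher and 13 lower of 38 (median −0.23). Split instead by a shared stretch of 100 bases, 0 of 59 copies were higher and 9 lower where there was one (2 higher and 18 lower unadjusted). Where there was none, 7 of 60 were higher, the same 4 among them, and 0 lower (11 higher and 3 lower unadjusted). With 1 FPKM in all 4 libraries these calls were 2 higher and 1 lower of 26. Both splits were chosen with these results known and carry no test. Of the 53 parent genes, 0 were higher and 10 lower by limma-trend (1 higher and 26 lower unadjusted, 3 higher and 27 lower by limma-voom), where 5.00% and 8.92% of all features were higher and lower by limma-trend. Their median was −0.25, with 46 of 53 negative, and it was −0.14 without negative control replicate 1 and −0.34 without replicate 3. The 685 other processed pseudogenes that passed the level filter had a median of 0.11, with 34 higher and 25 lower.

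Under scaling to library totals the median of all features was 0.05, that of the closer copies −0.14, that of the other copies 0.17 and that of the parents −0.18. Calls among the closer copies were then 0 higher and 10 lower, and among the other copies 7 higher and 1 lower. Over all features that scaling moved the share of calls that were higher in NT1_hp2 to 53.6%, against 35.9% as deposited. The library size implied by the deposited values differed from the recovered reads. It was 1.035 and 1.044 times these reads in NT1_hp2 replicates 2 and 3, and 0.966 and 1.005 times in negative control replicates 1 and 3.

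The log2 differences of copy and parent had a Pearson r of 0.60 and a Spearman rho of 0.63 over the 41 closer copies, and 0.25 and 0.26 over the other 80. These points share libraries, several share a parent, and the closer copies share sequence with it, so the values are descriptive. Reads of a copy and of its parent cannot be told apart where the sequences are the same.

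**Figure D4:**
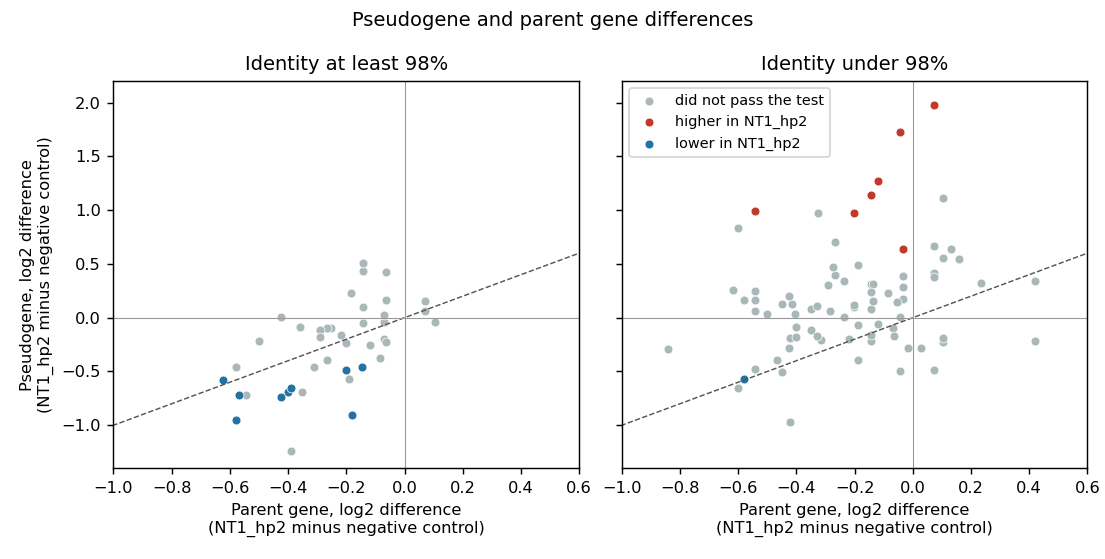
Log2 difference (NT1_hp2 minus negative control) of each pseudogene against that of its parent gene, for copies with at least 98% identity (left, n = 41) and below (right, n = 80); the dashed line marks equal differences. Closer copies lie mostly below 0 on both axes, while the 7 copies higher in NT1_hp2 all lie in the right panel, above the line.

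Among the lower copies RPS2P46, in an intron of AC004448.2 on the same strand (chr17:19445970-19446852), had the largest difference. It had 97.1 and 96.4 FPKM in NT1_hp2, against 221 and 159.7 FPKM in the negative control, with −0.95 ± 0.16 (SE) as the log2 difference (limma-trend adjusted p = 0.0374). Its host was at 0.06 and 0.05 FPKM on average in NT1_hp2 and the negative control. RPS2 itself was lower by a log2 difference of −0.58 (adjusted p = 0.0430). RPS2P46 amounted to 2.91% and 2.84% of the reads of RPS2 in NT1_hp2 and to 4.01% and 3.49% in the negative control.

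The other RPS2 copies had differences of either sign. RPS2P5 had a log2 difference of −0.46 ± 0.11, which did not pass the test as deposited (limma-trend adjusted p = 0.0547) and passed under each of the 3 other scalings (adjusted p = 0.0362 to 0.0417). RPS2P55, outside other genes (chrX:40934982-40935864), fell to 2.25 and 2.31 FPKM in NT1_hp2, against 4.25 and 3.52 FPKM in the negative control (−0.57 ± 0.11, limma-trend adjusted p = 0.0422). RPS2P7 had 2.88 and 2.47 FPKM in NT1_hp2 against 1.96 and 2.61 FPKM in the negative control, with overlapping libraries and no call (limma-trend adjusted p = 0.452). All 4 are copies of the same mRNA, so reads can be shared among them as well as with RPS2.

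RPLP0P6, within an intron of AC011247.1 on the opposite strand (chr2:38481851-38482804), had 48.9 and 48.4 FPKM in NT1_hp2 against 103 and 82.5 FPKM in the negative control (−0.91 ± 0.12, limma-trend adjusted p = 0.0340). The parent RPLP0 did not pass, with 491 and 457 FPKM in NT1_hp2 against 562 and 511 FPKM in the negative control (−0.18, adjusted p = 0.226). In reads, RPLP0P6 was 2.38% and 2.52% of RPLP0 in NT1_hp2 and 4.37% and 3.85% in the negative control. The difference between the changes of copy and parent was not tested.

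RPL3P4 (chr14:98972879-98973301) had the log2 difference −0.72 ± 0.11 (limma-trend adjusted p = 0.0340), beside −0.57 for RPL3 (adjusted p = 0.0386). In reads it was 3.76% and 4.11% of RPL3 in NT1_hp2 and 4.39% and 4.34% in the negative control. RPL13AP5 (chr10:96750288-96750899), a copy of the large-subunit gene RPL13A, had 48.0 and 49.6 FPKM in NT1_hp2, against 80.3 and 78.2 FPKM in the negative control. Replicates lay close together and the groups were far apart, with a log2 difference of −0.69 ± 0.06 (limma-trend adjusted p = 0.0340).

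RPL41P5, a short copy identical to RPL41 (chr12:93083598-93083675), had 30.9 and 37.0 FPKM in NT1_hp2 against 58.8 and 49.0 FPKM in the negative control (−0.65 ± 0.13). RPS7P11, in an intron of NSF on the opposite strand, had 54.6 and 56.4 FPKM in NT1_hp2 against 85.7 and 71.2 FPKM in the negative control (−0.49 ± 0.11). Groups were apart in both, and the parents RPL41 (−0.39) and RPS7 (−0.20) did not pass.

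The remaining lower copies were at low levels. RPL24P4 had 4.04 and 3.68 FPKM in NT1_hp2 against 8.25 and 6.05 FPKM in the negative control (−0.73 ± 0.15), on 22 to 50 reads a library. RPL23AP42 had 2.41 and 2.09 FPKM in NT1_hp2 against 3.39 and 3.55 FPKM in the negative control (−0.46 ± 0.10, limma-trend adjusted p = 0.0491), on 14 to 23 reads, and lost its call under every other scaling (adjusted p up to 0.0593). With limma-voom on recovered reads RPL24P4, RPL41P5, RPS2P55 and RPL23AP42 did not pass (adjusted p = 0.105 to 0.42). All 10 lower copies had a parent with a negative difference, where 46 of all 53 parents were negative. For 4 of the 10 the parent passed the test as lower, with RPS2 counted for both RPS2P46 and RPS2P55, where 10 of 53 parents did. In 8 the copy fell by more than the parent, but these copies were picked for their own difference. RPL41P1 had the largest negative difference of all 121 (−1.24), but its NT1_hp2 libraries, at 55.9 and 20.9 FPKM against 101 and 66.8 FPKM in the negative control, were too far apart to pass (limma-trend adjusted p = 0.168).

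The 7 higher copies had 84.7% to 94.4% identity and shared no stretch of 100 bases with the parent. Read length is not known, and some of them shared stretches of 50 bases. Of all stretches of that length in the copy, 16.9% were in the parent for RPL17P50, 3.1% for RPS27AP12, 0.71% for RPL5P30 and 0.30% for RPS15AP10. RPS3AP3, RPL23AP97 and RPL7AP10 had 0%. The first 4 described here (RPS3AP3, RPS15AP10, RPS27AP12 and RPL23AP97) met the level rule through NT1_hp2 alone and so had to be higher there. Their p-values, read ratios and counting intervals are not independent of that choice. None of the parents of the 7 copies passed the test as higher, and 6 of the 7 parents had a negative difference. Of all 53 parents, 0 passed as higher and 46 had a negative difference. RPS3AP3, in an intron of RBL1 on the same strand (chr20:37021743-37021984), had 4.68 and 2.62 FPKM in NT1_hp2, against 0 and 0.329 FPKM in the negative control. In reads these were 16 and 9 in NT1_hp2 and 0 and 1 in the negative control, a ratio of 23.8 with a 95% counting interval of 3.90 to 977. The log2 difference was 1.98 ± 0.29 (limma-trend adjusted p = 0.0340). RBL1, which encodes the retinoblastoma-related protein p107, had 13.7 and 12.7 FPKM in NT1_hp2 against 9.30 and 10.4 FPKM in the negative control (0.39, limma-trend adjusted p = 0.0449). RPS3AP3 reads amounted to 1.39% and 0.837% of RBL1 reads in NT1_hp2 and to 0% and 0.129% in the negative control. These shares carry the same selection, and the difference between the changes of copy and host was not tested. The parent RPS3A did not pass (0.07, adjusted p = 0.653).

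RPS15AP10, in an intron of GPBP1L1 on the same strand (chr1:45645816-45646197), had 3.34 and 5.35 FPKM in NT1_hp2 against 0.364 and 0.834 FPKM in the negative control. That is 18 and 29 reads in NT1_hp2 and 2 and 4 in the negative control, a ratio of 7.46 (95% counting interval 3.18 to 21.3) and a log2 difference of 1.73 ± 0.25 (limma-trend adjusted p = 0.0340). GPBP1L1 itself had 12.4 and 12.5 FPKM in NT1_hp2 against 12.6 and 11.9 FPKM in the negative control, with overlapping libraries (0.02, adjusted p = 0.837). RPS15A, the parent, had a log2 difference of −0.04 (adjusted p = 0.781).

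RPS27AP12, in an intron of UBE3C on the same strand (chr7:157192368-157192832), had 1.98 and 1.97 FPKM in NT1_hp2 against 0 and 0.513 FPKM in the negative control (13 and 13 reads in NT1_hp2, 0 and 3 in the negative control). The ratio of reads was 8.25 (95% counting interval 2.53 to 42.6), and the log2 difference was 1.27 ± 0.29 (limma-trend adjusted p = 0.0496). UBE3C, a ubiquitin ligase gene, had a log2 difference of −0.03 (adjusted p = 0.746). RPL23AP97, outside other genes (chr13:114346167-114346637), had 1.80 and 1.64 FPKM in NT1_hp2 against 0.147 and 0.338 FPKM in the negative control, from 12 and 11 reads in NT1_hp2 and 1 and 2 in the negative control (ratio 7.30, 95% counting interval 2.21 to 38.0; log2 difference 1.14 ± 0.24, limma-trend adjusted p = 0.0451). Groups could not overlap in either copy, because both met the level rule through NT1_hp2 alone. With a pseudocount of 0.1 neither passed (adjusted p = 0.126 for RPS27AP12 and 0.0830 for RPL23AP97).

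RPL7AP10, in an intron of ZNF431 on the opposite strand (chr19:21149648-21150438), had 31 and 33 reads in NT1_hp2 against 10 and 10 in the negative control, or 2.86 ± 0.12 FPKM against 0.942 ± 0.091 FPKM (SD, n = 2 libraries each). It reached 1 FPKM in both NT1_hp2 libraries and in only 1 negative control library, so its direction is not independent of the level rule. The log2 difference of RPL7AP10 was 0.99 ± 0.13 (limma-trend adjusted p = 0.0340), while the parent RPL7A fell (−0.54, adjusted p = 0.0381). RPL5P30, in an intron of IFT46 on the opposite strand (chr11:118560690-118561580), had 3.42 and 2.92 FPKM in NT1_hp2 against 1.56 and 1.79 FPKM in the negative control (0.64 ± 0.12, limma-trend adjusted p = 0.0408; 0.0524 with limma-voom). The parent RPL5 had a log2 difference of −0.03 (adjusted p = 0.825). Strand is unmarked in these libraries, so reads of the hosts ZNF431 and IFT46 cannot be told apart from those of RPL7AP10 and RPL5P30.

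RPL17P50 (chr10:73005833-73006595, minus strand) had the most reads of the higher copies, 67 and 73 in NT1_hp2 against 38 and 24 in the negative control. Its level was 8.69 and 9.42 FPKM in NT1_hp2, against 4.83 and 3.50 FPKM in the negative control, a log2 difference of 0.97 ± 0.14 (limma-trend adjusted p = 0.0340). It begins 622 bases beyond the end of P4HA1 on the same strand. P4HA1, which encodes a catalytic subunit of collagen prolyl 4-hydroxylase, had 197.8 and 184 FPKM in NT1_hp2 against 109 and 104 FPKM in the negative control (0.84, adjusted p = 0.0340). RPL17P50 reads amounted to 0.775% and 0.905% of P4HA1 reads in NT1_hp2 and to 0.785% and 0.596% in the negative control, ranges that overlap. The parent RPL17 had a log2 difference of −0.20 (adjusted p = 0.403).

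By position, 51 of the 121 copies lay outside other genes, 32 in an intron on the opposite strand, 30 in an intron on the same strand and 8 overlapped an annotated exon of another gene. The library kit leaves strand unmarked, and reads of a copy and of a host transcript through the same bases cannot be told apart, on either strand. Host differences are set beside copies only for hosts on the same strand. Those of opposite-strand hosts, such as ZNF431 for RPL7AP10 and IFT46 for RPL5P30, are not given. A host share in the reads of these copies was not tested. Median levels were 4.17 FPKM outside genes, 2.22 FPKM on the opposite strand, 2.29 FPKM on the same strand and 2.42 FPKM with exon overlap. Of the 30 same-strand copies 3 were higher and 3 lower, of the 32 opposite-strand copies 2 and 2, and of the 51 outside genes 2 and 4. Over all features tested 13.9% passed, 5.00% of them all higher and 8.92% lower. The counts by position were not tested against that share or against each other, so they are a description only. Median log2 differences in these 3 classes were 0.01, −0.01 and −0.05. The higher same-strand copies (RPS3AP3, RPS15AP10 and RPS27AP12) and RPL23AP97, outside genes, met the level rule only through NT1_hp2.

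Of the 30 same-strand copies, 22 had a host that passed the level filter. Of these 21 distinct hosts, 1 was higher (RBL1) and 1 lower (ATOX1, a copper chaperone gene), where 13.9% of all features passed, and their median log2 difference was 0.01. ATOX1 holds RPLP1P6, which had a log2 difference of −0.28 and did not pass. Over the 22 pairs the log2 differences of copy and host had a Pearson r of 0.34 and a Spearman rho of 0.19, a description of points that share libraries and, for PARD3, a host. In 14 of the 30, the copy was above its host in mean FPKM, 6 of the 8 with at least 98% identity and 8 of the 22 below. The copies had to meet the level rule and the hosts did not, and in 8 of the 30 the host mean was under 1 FPKM. These counts therefore follow in part from the selection.

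Some of the highest intronic copies stood well above their hosts. OOEP, an oocyte gene, had 0 reads in both NT1_hp2 libraries and 2 and 0 reads in the negative control, while RPL39P3 within it had 515 and 437 reads in NT1_hp2 against 515 and 416 in the negative control. RPL22P1, in MECOM, had 23.1 and 23.2 FPKM in NT1_hp2 against 40.8 and 29.7 FPKM in the negative control and did not pass as deposited (−0.57 ± 0.15, limma-trend adjusted p = 0.0699). MECOM, a zinc finger transcription factor gene, had 2.50 and 2.46 FPKM in NT1_hp2 against 2.36 and 2.55 FPKM in the negative control. RPL24P8, in MAMDC2, had 17.8 and 17.5 FPKM in NT1_hp2 against 24.6 and 16.6 FPKM in the negative control, with overlapping groups, and its host was below 1 FPKM on average.

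**Figure D5:**
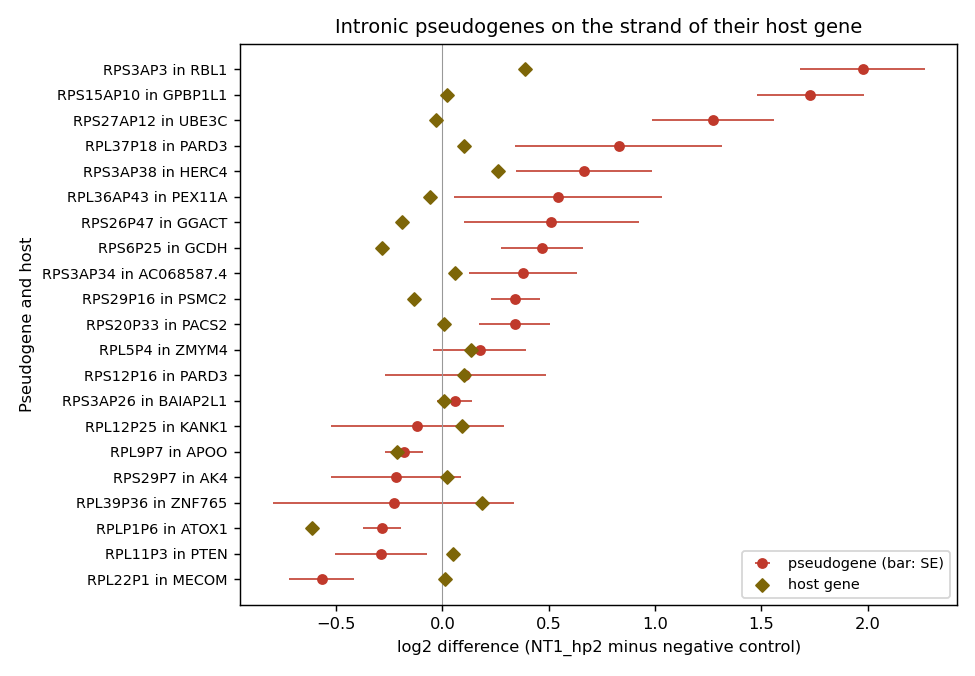
Log2 difference (NT1_hp2 minus negative control) of 21 of the 22 same-strand intronic pseudogenes whose host passed the level filter (red, with SE) and of the host (brown diamonds), ordered by the pseudogene. Hosts other than RBL1 and ATOX1 did not pass the test. The pseudogenes range from −0.57 to 1.98, and of those shown only RPS3AP3, RPS15AP10 and RPS27AP12 passed. These met the level rule only through NT1_hp2, so their direction was fixed by selection.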

How the data were processed

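The authors deposited 1 value per gene and library. These were taken as FPKM, a unit inferred from the deposited values, because the file headers name only gene and library. The genome build is GRCh38.p12 per the submitters' processing notes, and the sources used here give no aligner, counter or read length. Multiplied by the summed exon length in GENCODE 29, 100% of the deposited values above 0 were whole reads within 0.01, which gave the read numbers printed. The EGFP entry was left out of the totals.

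The pseudogenes and gene lists were chosen with earlier results of these data known. The parent is the gene that the symbol names. Identity is that of the best blastn 2.17.0 alignment to 1 parent transcript of GENCODE 29. Shared stretches are exact matches of 100 bases in the parent mRNA, or of 50 bases where stated. Best alignment gave the same parent for 119 of 121.

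Features that reached 1 FPKM in 2 or more libraries were tested with limma 3.58.1 in R 4.3.3 (trend, robust) on log2(FPKM + 1), which understates changes at low levels, with Benjamini-Hochberg adjustment over 16362 features. Means over a group rest on 2 libraries, and counting intervals (95%, exact) cover counting error only. Copies were named by a rule: those past the test, the 10 highest, the 6 highest same-strand intronic copies, the 5 highest ratios to the parent, 3 on each side of the threshold, and RPL17P50. RPS2P7, RPL12P14, RPL41P1, RPL21P16 and RPLP1P6 were named after their values were seen. No 2 libraries were identical (0 pairs). Alternatives were other scalings, a pseudocount of 0.1, limma-voom on recovered reads, other filters and omission of each library. A lower copy with its parent and some sequences are not reported here.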

Additional observations from a re-analysis of the deposited data

How the results depend on the processing

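With limma-trend, the 2278 calls over all features became 3647 with at least 1 FPKM required in all 4 libraries and 5787 with limma-voom on recovered reads. They became 0 with no filter (6778 at an unadjusted p under 0.05) and 0 to 1 with 1 library left out (3315 to 5836). The share of calls that were higher was 35.9% as deposited, 53.6% when scaled to totals (1536 higher, 1331 lower), 51.0% by upper quartiles (1484 and 1428) and 57.8% by limma-voom (3343 and 2444). Calls among the pseudogenes numbered 14 to 18 under other scalings, a pseudocount of 0.1, limma-voom, no robust shrinkage and at least 1 FPKM in all 4 libraries, and fell to 0 with no filter (36 unadjusted) and to 0 with any 1 library left out. The 9 lower copies of at least 98% identity and the 7 higher copies below it likewise became 0 and 0 with no filter or with 1 library left out. With at least 1 FPKM in all 4 libraries, the calls below 98% were 2 higher and 3 lower of 43 copies, and 0 higher and 13 lower of 38 at 98% or more. Identity splits at 97% and 99%, added after seeing the data, gave 10 of 52 and 5 of 25 closer copies lower. The median log2 difference of the pseudogenes lay between −0.10 and 0.07, and no copy that passed the test turned its direction. No paired analysis was possible because the groups share only 1 replicate number, 3. Copies with under 10 reads in a library are limited by depth.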
